A study of Oryza sativa with 200 samples.

Results

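Transcripts of the rice gene Os03g0855700, near the end of chromosome 3, were abundant in the leaves of 73 of 100 inbred lines and nearly absent from the other 27. The lines were chosen by the level of that gene alone, as measured in these libraries. A line was called on where the gene reached at least 2 counts per 1000000 counts of the library (CPM) in both 2022 and 2023, and off where it stayed under 0.2 CPM in both years. All 100 lines fell in 1 of these classes, with 146 libraries in on lines and 54 in off lines, out of 200 in the series. JAM2, the population sampled, is a multi-parent advanced generation inter-cross (MAGIC) from Akidawara, Iwaidawara, Tachiharuka and Toyomeki. Both classes shared the 4 parents, the field treatment (chemical fertilizer with 56 kg of nitrogen per ha, labelled control), the tissue and the sampling time, 6 weeks after transplanting between 9:00 and 11:00. On and off lines alike were in generation F5 when sampled on 1 July 2022, and in F6 when sampled on 29 June 2023. Each line was 33 plants in a single unreplicated plot and gave 1 leaf library per year. Lines are thus the replicates within a class, and p-values of the fits within a year measure the spread between lines. No genotypes were used, so the classes are classes of expression. Which parent a line's chromosome end came from was not analysed here.

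In a multi-parent population each line carries a mosaic of long blocks from its parents. Genes that lie close together on a chromosome are mostly inherited in the same block, and a crossover between them separates their parental origins. Sequence differences near a gene, or the gain or loss of the gene itself, can change its transcript level on the same chromosome copy. Locus identifiers of the rice annotation (build IRGSP-1.0) name the chromosome in the digits after Os and then number the loci along it, so a difference of locus numbers orders genes but is not a distance in bases. The function of Os03g0855700 was not annotated in the sources used here.

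In 2022 the 73 on lines held Os03g0855700 at a lowest level of 36.8, a median of 167.6 and a highest level of 234.1 CPM, and the 27 off lines held it at 0 to 0.160 CPM. In 2023 the on lines spanned 11.2 to 206.8 CPM with a median of 153.7, and the off lines 0 to 0.181 CPM. The off lines had 0 counts in 25 of 27 libraries in 2022 and in 24 of 27 in 2023, and no off library had more than 2 counts. The classes were thus far apart in both years. Because these values chose the classes, they are a description, and no test of them is reported. A count of 0 in these off libraries allows a level of up to 0.622 CPM in 2022 and up to 0.714 CPM in 2023, taking 3 counts as the limit and covering counting error only. The line nearest the limit on the on side was J2_323 in both years. Classes read from 2022 alone or from 2023 alone put all 100 lines in the same class, so each year's comparison below used classes that the other year's libraries would also have given.

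**Figure D1:**
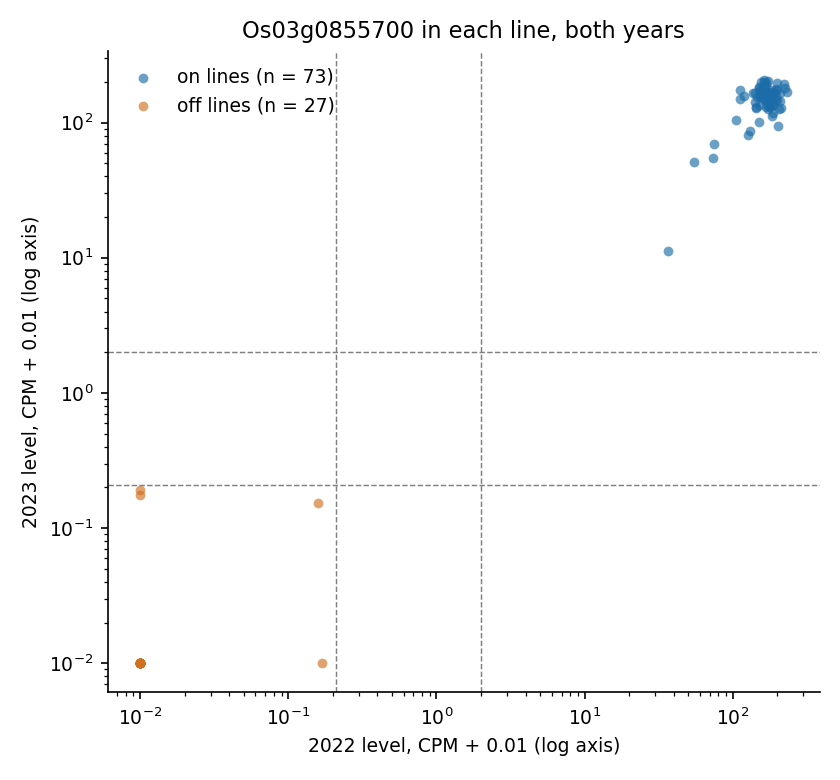
Each point is 1 line, with the 2022 level of Os03g0855700 on the x axis and the 2023 level on the y axis, both as CPM plus 0.01 on log axes; dashed lines mark the limits of 2 and 0.2 CPM. The 73 on lines sit at 11.2 CPM or more in both years, the 27 off lines at 0.181 CPM or less, and 0 lines lie between.

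Within the on class, 4 lines stood below the rest in both years, at less than 0.5 times the on median. J2_323 had 36.8 CPM in 2022 and 11.2 CPM in 2023. J2_385 had 54.5 and 51.2 CPM, J2_404 had 73.8 and 54.5 CPM, and J2_316 had 74.8 and 69.6 CPM. The other 69 on lines had at least 104.7 CPM in 2022 and at least 81.2 CPM in 2023. Over the 73 on lines the level in 1 year followed the level in the other (Pearson r = 0.791, a description over lines measured in separate plots and libraries).

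Leaf markers were abundant in both classes, and neither they nor the tested markers of other tissues passed between them. RCA (Os11g0707000), the Rubisco activase of the chloroplast, had medians of 32375 CPM in on lines and 29302 CPM in off lines in 2022, and of 40804 CPM in on lines and 40272 CPM in off lines in 2023. RBCS (Os12g0274700), the Rubisco small subunit gene, had medians of 6709 CPM in on lines and 6172 CPM in off lines in 2022, and of 10429 CPM in on lines and 11950 CPM in off lines in 2023. Of 5 markers of other tissues, the flower genes OsMADS6 (Os02g0682200) and OsMADS7 (Os08g0531700) had a median of 0 CPM in both classes and years. The flower gene OsMADS1 (Os03g0215400), the gene PCNA (Os02g0805200) of dividing cells and the silicon transporter gene LSI1 (Os02g0745100), known from roots, were present and did not pass. Their on and off medians in 2022 were 1.57 and 0.79 CPM for OsMADS1, 6.06 and 5.75 CPM for PCNA, and 16.6 and 17.3 CPM for LSI1. In 2023 they were 1.69 and 0.78, 4.78 and 4.33, and 19.4 and 20.1 CPM. OsMADS1 reached 28.9 CPM in an on line in 2022 and 31.2 CPM in an off line in 2023. In leaf RNA of this kind, fewer cells of a type and less transcript per cell cannot be told apart. Library totals ran from 3254834 to 37774023 counts over all libraries. The median was 7803321 in on lines and 7703364 in off lines in 2022, and 11249620 in on lines and 11473730 in off lines in 2023.

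The comparison asked which other transcripts differed between on and off lines, and whether these lay near Os03g0855700. Nearly all that passed did. Each year was fitted apart with edgeR's quasi-likelihood test over all genes that averaged 1 CPM or more. Genes with a Benjamini-Hochberg adjusted p under 0.05 were called. In 2022, 49 of 18585 genes were called (0.264%), and 48 of them were among the 517 tested genes of chromosome 3 within 100000 locus numbers of Os03g0855700 (9.28%). In 2023, 57 of 18391 genes were called (0.31%), of which 55 were among the 510 tested genes of that window (10.8%). Both years called 43 window genes in the same direction, out of 505 tested in both (8.51%, against 0.237% of all 18115 genes tested in both). Of these 43, 26 were higher in on lines (5.15% of the window genes, 0.144% of all) and 17 were lower (3.37% of the window genes, 0.0938% of all). The years share the lines and their classes, but not the leaves, plots or libraries.

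Outside the window, 1 gene was called in 2022 (0.00553%) and 2 in 2023 (0.0112%). There, 0 of 17610 genes were called in both years by edgeR, and 99 had an unadjusted p under 0.05 in both years with the same sign. DESeq2 also called 0 there in both years. In single years, 930 of 18068 genes had an unadjusted p under 0.05 in 2022 and 831 of 17881 in 2023. Os01g0959900 was called in 2022 alone (log2 difference, on over off lines, 0.17, adjusted p = 0.0269) and measured 0.06 in 2023 (adjusted p = 0.986). In 2023 alone, Os05g0518000 was called at a log2 difference of 1.13 (adjusted p = 0.00316), after 0.33 in 2022 (adjusted p = 0.945). Os07g0521600 was called in 2023 at −0.17 (adjusted p = 0.00678), after −0.07 in 2022 (adjusted p = 0.951). None of these 3 was called in the other year, and on and off lines overlapped at each. Each also lost its call within the lower-numbered and within the higher-numbered lines.

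The calls were not spread evenly over the window. All 43 genes called in both years lay within 34600 locus numbers of Os03g0855700. They made up 18.2% of the tested genes within 40000 locus numbers, and of the 269 farther away 0 were called by edgeR in both years. Of the 33 tested genes with higher locus numbers than Os03g0855700, 8 were called (24.2%). These are the last loci of the chromosome, since the highest lies 6600 numbers beyond the gene. On the other side, 13 of 54 were called within 10000 locus numbers (24.1%), 11 of 46 between 10000 and 20000 (23.9%), 3 of 42 between 20000 and 30000 (7.14%) and 8 of 61 between 30000 and 40000 (13.1%). The sizes of the differences were also largest close to the gene. The median absolute log2 difference was 0.13 in 2022 and 0.12 in 2023 for the 54 genes nearest on that side, against 0.048 and 0.046 for genes outside the window. Between 20000 and 30000 locus numbers away it was 0.057 in 2022 and 0.054 in 2023. From 30000 to 40000 it was higher again, at 0.076 in 2022 and 0.074 in 2023, so it did not fall steadily with distance. Between 90000 and 100000 locus numbers away it was 0.067 in 2022 and 0.044 in 2023.

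**Figure D2:**
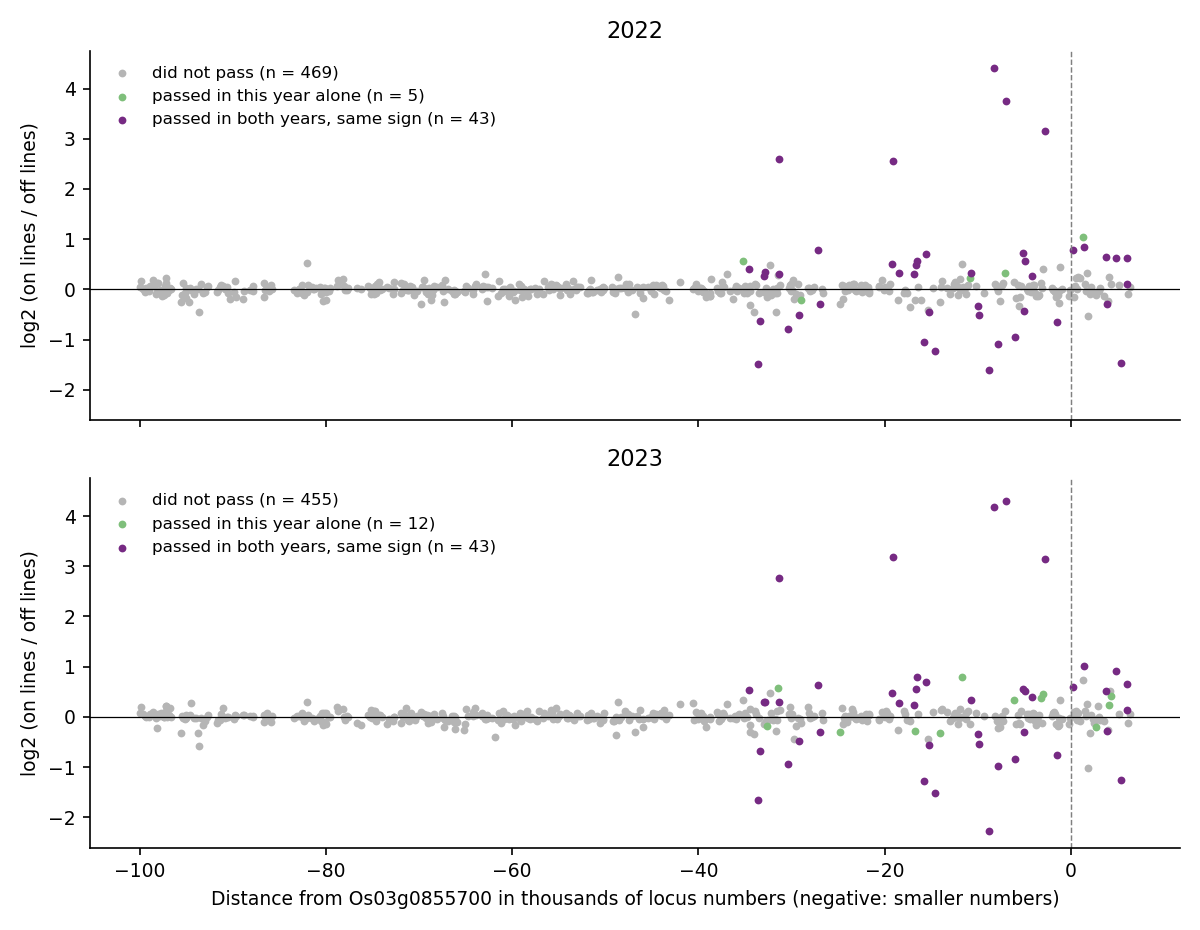
The y axis gives the log2 difference of on over off lines for each tested window gene in 2022 (top) and 2023 (bottom), and the x axis the distance from Os03g0855700 (dashed line, not itself plotted) in units of 1000 locus numbers. The 43 genes called in both years (purple) lie within 34600 locus numbers and hold both signs.

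Most called differences were small and did not separate the classes. Of the 43 genes, 10 differed at least 2-fold in both years and 19 by less than 1.5-fold in both. At every one of the 43, the on and off lines overlapped in both years, by their lowest and highest levels, which a single line can set. With J2_372 and J2_389 set aside after their values were seen, the classes did not overlap in either year at Os03g0852900, Os03g0848700, Os03g0847500 and Os03g0841100. The 10 large ones are described next, from the one nearest to Os03g0855700 outward, within each direction. Os03g0861100, which lies on the other side of Os03g0855700, comes last. None of the 43 identifiers but Os03g0826500 has a kept gene name, so the others are given by identifier with no role.

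Os03g0852900, 2800 locus numbers from Os03g0855700, followed its classes most closely. In 2022 the on lines ranged from 26.9 to 66.0 CPM with a median of 51.4, and the off lines from 1.90 to 49.1 CPM with a median of 4.55. In 2023 the on lines ranged from 19.4 to 51.7 CPM (median 43.4) and the off lines from 0.938 to 45.3 CPM (median 3.24). A single off line, J2_389, held on-like levels of 49.1 and 45.3 CPM, and every other off line lay below every on line, at 6.97 CPM or less in 2022 and 4.94 CPM or less in 2023. The log2 difference was 3.14 in 2022 (SE 0.146, adjusted p = 6.87e-36, edgeR) and 3.15 in 2023 (SE 0.168, adjusted p = 5.17e-31).

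Os03g0848700 was low in on lines and had 0 counts in most off lines. Its on lines ranged from 0 to 7.30 CPM with a median of 2.12 in 2022, and its off lines from 0 to 6.27 CPM with a median of 0. In 2023 the on lines ranged from 0 to 7.28 CPM (median 3.48) and the off lines from 0 to 3.43 CPM (median 0). Counts were 0 in 1 of 73 on lines and 24 of 27 off lines in 2022, and in 1 of 73 on lines and 25 of 27 off lines in 2023. The lone on line without a count was J2_372 in both years, and the off line at 6.27 and 3.43 CPM was J2_389. As a log2 difference of on over off lines this was 3.74 in 2022 (SE 0.412, adjusted p = 1.01e-11, edgeR) and 4.29 in 2023 (SE 0.349, adjusted p = 1.33e-18).

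Os03g0847500 had the largest difference in 2022. Its on lines ranged from 0 to 16.2 CPM with a median of 11.1 in 2022, and its off lines from 0 to 12.4 CPM with a median of 0. In 2023 the on lines ranged from 0.889 to 16.9 CPM (median 11.3) and the off lines from 0 to 11.3 CPM (median 0). The same lines stood out: J2_372 was lowest of the on lines in both years, and J2_389 highest of the off lines. Without J2_372 the on lines held at least 6.44 CPM in 2022 and 3.16 CPM in 2023, and without J2_389 the off lines held at most 1.19 and 0.921 CPM. On lines differed from off lines by a log2 value of 4.42 in 2022 (SE 0.324, adjusted p = 2.43e-21, edgeR) and 4.18 in 2023 (SE 0.317, adjusted p = 2.65e-20). Apart from Os03g0855700, it was the sole window gene that was on/off across the population in both years, meaning at least 10 lines at 2 CPM or more, at least 10 under 0.2 CPM and at most 10 between. Its side matched the class in 92 of 94 placed lines in 2022 (97.9%, exact 95% interval 92.5 to 99.7%) and in 93 of 94 in 2023 (98.9%, 94.2 to 99.97%). For the on/off genes outside the window the matching share, taken in whichever direction matched more lines, had a median of 60% in both years, with a range of 50 to 73.3% in 2022 and 50 to 72% in 2023.

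Os03g0836600 lies 19100 locus numbers away. In 2022 its on lines ranged from 0.272 to 30.0 CPM (median 16.6) and its off lines from 0.108 to 26.9 CPM (median 1.27). In 2023 the on lines ranged from 0.444 to 21.96 CPM (median 14.1) and the off lines from 0.0872 to 13.4 CPM (median 0.426). Here 2 on lines, J2_372 and J2_233, were low in both years, and 2 off lines, J2_389 and J2_317, were high. The log2 difference was 2.55 in 2022 (SE 0.270, adjusted p = 1.59e-12, edgeR) and 3.19 in 2023 (SE 0.266, adjusted p = 6.07e-18).

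Os03g0824350 was the farthest of the genes higher in on lines by at least 2-fold, at 31350 locus numbers. In 2022 its on lines ranged from 0 to 13.4 CPM (median 8.34) and its off lines from 0 to 10.9 CPM (median 0.162). In 2023 the on lines ranged from 0 to 11.6 CPM (median 7.40) and the off lines from 0 to 7.90 CPM (median 0.225). More lines lay on the other side than at the 2-fold genes above, with an on line at 0 in each year and off lines within the on range. As a log2 difference of on over off lines this was 2.60 in 2022 (SE 0.338, adjusted p = 8.21e-09, edgeR) and 2.77 in 2023 (SE 0.305, adjusted p = 9.12e-12).

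In the other direction, 5 genes were lower in on lines by at least 2-fold in both years. Their log2 differences were smaller in size than those of the genes above. Os03g0846900 had 1.04 to 10.5 CPM (median 3.14) in on lines and 3.73 to 14.4 CPM (median 10.9) in off lines in 2022. In 2023 it had 0.673 to 9.33 CPM (median 2.16) in on lines and 2.57 to 16.6 CPM (median 11.9) in off lines. All 73 on lines lay below the off median in both years. On lines differed from off lines by a log2 value of −1.61 in 2022 (SE 0.103, adjusted p = 4.18e-25, edgeR) and −2.27 in 2023 (SE 0.124, adjusted p = 2.77e-30).

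Os03g0841100 was the most sharply split of these. It had 6.07 to 26.3 CPM (median 14.8) in on lines and 16.1 to 47.3 CPM (median 34.9) in off lines in 2022. In 2023 it had 5.27 to 33.1 CPM (median 13.4) in on lines and 14.5 to 48.3 CPM (median 39.4) in off lines. The highest on line was J2_372 and the lowest off line J2_389, and with those set aside on lines ended at 22.5 CPM in 2022 and 29.7 CPM in 2023, and off lines began at 29.4 CPM in 2022 and 31.8 CPM in 2023. The log2 difference was −1.23 in 2022 (SE 0.055, adjusted p = 7.62e-37, edgeR) and −1.51 in 2023 (SE 0.067, adjusted p = 3.21e-37).

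Its neighbour in this group, Os03g0839900, had 22.3 to 67.6 CPM (median 35.5) in on lines and 30.0 to 104.1 CPM (median 76.7) in off lines in 2022. In 2023 it had 14.1 to 102.0 CPM (median 33.8) in on lines and 36.8 to 110.4 CPM (median 88.0) in off lines. J2_372 was again the highest on line and J2_389 the lowest off line in both years. As a log2 difference of on over off lines this was −1.05 in 2022 (SE 0.060, adjusted p = 1.07e-28, edgeR) and −1.27 in 2023 (SE 0.072, adjusted p = 5.88e-29).

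Os03g0822100, the farthest of the 10 at 33600 locus numbers, had 0.922 to 11.9 CPM (median 3.11) in on lines and 2.74 to 14.8 CPM (median 10.9) in off lines in 2022. In 2023 it had 0.468 to 12.5 CPM (median 2.32) in on lines and 1.44 to 14.2 CPM (median 9.24) in off lines. The ranges overlapped widely, though 89 of 100 lines in 2022 and 91 in 2023 lay on the side of their class by the midpoint placement described below. On lines differed from off lines by a log2 value of −1.49 in 2022 (SE 0.138, adjusted p = 1.85e-15, edgeR) and −1.66 in 2023 (SE 0.169, adjusted p = 2.9e-13).

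Beyond Os03g0855700, towards the end of the chromosome, Os03g0861100 was the sole gene of the 10. It had 0.991 to 6.16 CPM (median 2.66) in on lines and 1.49 to 11.8 CPM (median 8.34) in off lines in 2022. In 2023 it had 0.465 to 11.4 CPM (median 3.05) in on lines and 3.15 to 17.8 CPM (median 7.80) in off lines. On lines lay lower as a class, with a wide shared range in 2023. The log2 difference was −1.46 in 2022 (SE 0.099, adjusted p = 2.27e-23, edgeR) and −1.26 in 2023 (SE 0.131, adjusted p = 8.11e-13).

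**Figure D3:**
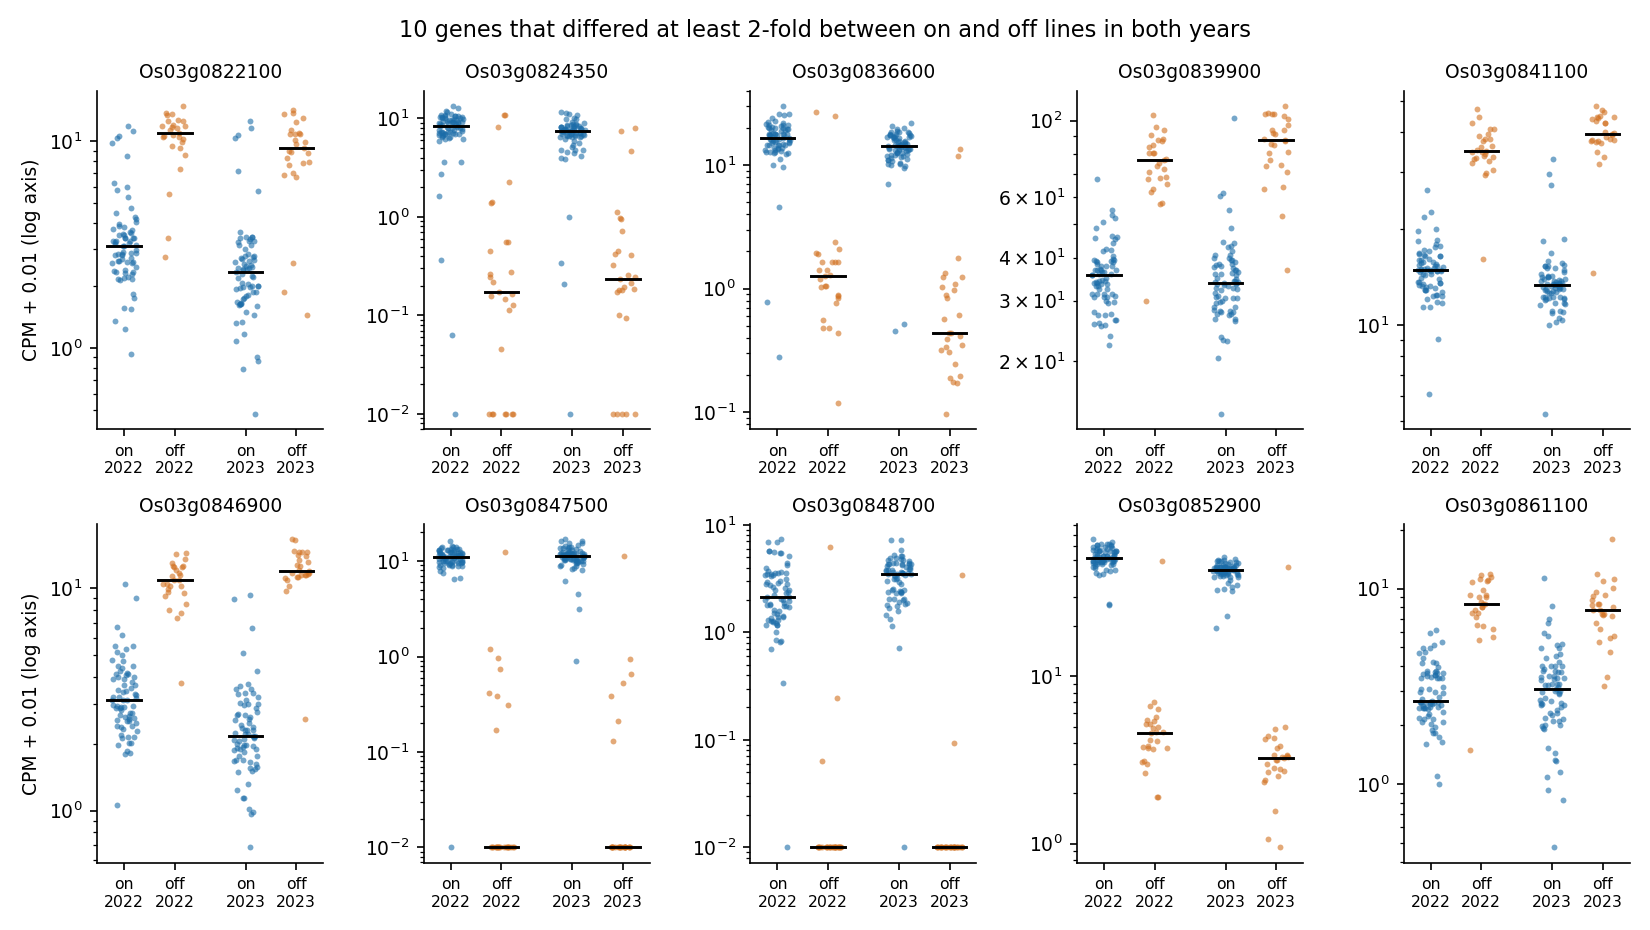
Each panel gives 1 of the 10 genes in the order of their locus numbers, with CPM plus 0.01 on a log axis, 1 point per line (73 on, blue; 27 off, orange) and a black bar at the median, for 2022 and 2023. At Os03g0852900 the on medians are 51.4 and 43.4 CPM and the off medians 4.55 and 3.24 CPM, and a single off line (J2_389) lies among the on lines.

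Smaller differences ran in both directions over the same stretch. The next 7 genes higher in on lines had log2 differences of 0.56 to 0.84 in 2022 and 0.60 to 1.01 in 2023. Nearest was Os03g0856000, 300 locus numbers beyond Os03g0855700, with medians of 9.47 CPM in on lines and 5.31 CPM in off lines in 2022, and of 13.7 CPM in on lines and 9.36 CPM in off lines in 2023. Os03g0857100 had medians of 3.68 CPM in on lines and 1.98 CPM in off lines in 2022, and of 2.82 CPM in on lines and 1.42 CPM in off lines in 2023. At Os03g0840200 all 73 on lines lay above the off median in both years, with medians of 102.7 CPM in on lines and 62.7 CPM in off lines in 2022 and of 86.5 CPM in on lines and 51.6 CPM in off lines in 2023. The others were Os03g0828500, Os03g0839200, Os03g0860600 and Os03g0861700. The call at Os03g0839200 was lost in the lower-numbered lines in 2023 (adjusted p = 0.565, edgeR), in the higher-numbered lines in 2022 and 2023 (adjusted p = 0.691 and 0.0871) and without the lines of the 30 deepest 2022 libraries in 2022 (adjusted p = 0.326). In the higher-numbered lines the calls at Os03g0860600 in 2022 (adjusted p = 0.0669) and Os03g0828500 in 2023 (adjusted p = 0.143) were lost as well. A further 14 genes higher in on lines differed by 0.11 to 0.72 in 2022 and by 0.14 to 0.56 in 2023.

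Among the genes lower in on lines, the next 7 had log2 differences of −1.09 to −0.46 in 2022 and −0.97 to −0.55 in 2023. Os03g0854200, 1500 locus numbers from Os03g0855700, had medians of 6.89 CPM in on lines and 11.2 CPM in off lines in 2022, and of 4.95 CPM in on lines and 8.83 CPM in off lines in 2023. Only 2 on lines lay above its off median in 2022 and 0 in 2023. Os03g0849700 had medians of 3.69 CPM in on lines and 7.38 CPM in off lines in 2022, and of 2.39 CPM in on lines and 4.003 CPM in off lines in 2023. The others were Os03g0822300, Os03g0825300, Os03g0840500, Os03g0845800 and Os03g0847900. In the lower-numbered lines the calls were lost at Os03g0822300 in 2022 (adjusted p = 0.199, edgeR) and at Os03g0825300 and Os03g0845800 in 2023 (adjusted p = 0.593 and 1.00). In the higher-numbered lines they were lost at Os03g0825300, Os03g0840500 and Os03g0845800 in 2022 (adjusted p = 0.806, 0.361 and 0.361) and at Os03g0822300 in 2023 (adjusted p = 0.350). The call at Os03g0825300 in 2022 was also lost without the lines of the 30 deepest 2022 libraries (adjusted p = 0.233). Another 5 fell by less, at −0.52 to −0.29 in 2022 and −0.49 to −0.28 in 2023. Called genes next to each other in number, such as Os03g0836500 and Os03g0836600 or Os03g0824350 and Os03g0824400, may overlap or share reads. The library kit keeps strand, but the counting is not stated to use it, so a gene and an antisense partner cannot be told apart.

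One of these 5, ASA1 (Os03g0826500), encodes anthranilate synthase, the enzyme that commits chorismate to tryptophan synthesis. Its medians were 3.00 CPM in on lines and 4.48 CPM in off lines in 2022, and 2.23 CPM in on lines and 3.20 CPM in off lines in 2023. It fell in both years, by 0.52 (SE 0.114, adjusted p = 0.00583, edgeR) and 0.49 (SE 0.108, adjusted p = 0.00629) on the log2 scale. Its call was lost in the lower-numbered lines in 2023 (adjusted p = 0.328), in the higher-numbered lines in 2022 and 2023 (adjusted p = 0.992 and 0.545), and without the lines of the 30 deepest 2022 libraries (adjusted p = 0.324 and 0.297). Of 38 genes of the chromosome end with a kept name, 29 were tested, and ASA1 was the 1 called in both years. Of all window genes tested in both years 8.51% were so called, and of all genes 0.237%. ADF3 (Os03g0820500), an actin-depolymerizing factor, rose in 2022 alone, with medians of 9.85 CPM in on lines and 6.86 CPM in off lines (log2 difference 0.57, adjusted p = 0.00358, edgeR). That call was lost in the lower-numbered lines (0.30, adjusted p = 0.880). In 2023 its medians were 5.46 CPM in on lines and 4.13 CPM in off lines (0.34, adjusted p = 0.536). The other 27 passed in neither year. Among them were genes close to Os03g0855700, such as KU80 (Os03g0856200), a DNA end-binding subunit of repair, at 0.06 and 0.05, and the heat shock factor gene HSFA1 (Os03g0854500) at −0.04 and −0.03. The cytokinin-activating enzyme gene LOGL5 (Os03g0857900) measured 0.05 and 0.04.

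Lists of genes chosen by pathway held 0 called members in either year by edgeR, which at the 0.264% of all genes called in 2022 and 0.31% in 2023 is not a result about the lists. These were 11 tested genes of gibberellin synthesis and response, 10 of flowering, 7 of the circadian clock and 7 of nitrogen uptake and assimilation. One flowering gene, Hd16 (Os03g0793500), lies in the window, 62200 locus numbers from Os03g0855700. Median log2 differences in 2022 and 2023 were −0.01 and −0.00056 for gibberellin, 0.07 and 0.06 for flowering, −0.0026 and −0.00062 for the clock, and 0.04 and −0.04 for nitrogen. Over all genes tested they were −0.0027 and −0.00094. SD1 (Os01g0883800), the gibberellin 20-oxidase of semi-dwarf rice, had medians of 40.2 CPM in on lines and 49.7 CPM in off lines in 2022, and of 19.3 CPM in on lines and 16.2 CPM in off lines in 2023 (log2 differences −0.17 and 0.29, adjusted p = 0.951 and 0.986, edgeR). A p above the threshold does not show that the classes were alike at these genes.

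The levels of individual lines showed where along the chromosome they left their class. For the 10 genes with at least 2-fold differences, each line was placed on the on or off side of the midpoint between the class medians, on the scale of log2 CPM plus 0.5. These genes were chosen for their difference between the classes, so the placement is a description. In both years, 71 lines lay on the side of their class at all 10 genes. At Os03g0852900, 99 of 100 lines matched their class in both 2022 and 2023. At Os03g0848700 the number was 97 in both years, at Os03g0847500 98 in both, and at Os03g0846900 95 and 96. Farther out it was 98 and 96 at Os03g0841100, 96 and 94 at Os03g0839900, 95 and 96 at Os03g0836600, 92 and 93 at Os03g0824350 and 89 and 91 at Os03g0822100. Beyond Os03g0855700 it was 93 and 87 at Os03g0861100, where 86 lines kept the same side in both years against 96 to 100 at the other genes. The match was closest at Os03g0852900 and low at the genes farthest from Os03g0855700, but it did not fall evenly with distance. It was also low at Os03g0861100, which lies only 5400 locus numbers away. In 2022, Os03g0841100 matched in more lines than the nearer Os03g0846900.

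Several of the lines that differed did so in runs. In both years, 10 lines lay on the other side at 1 or more genes (7 on, 3 off), and 9 of them at 2 or more. The on line J2_372 matched at Os03g0852900 and differed at all 8 genes from Os03g0848700 outward. J2_233, an on line, and J2_317, an off line, matched as far as Os03g0839900 and differed at the 3 genes from Os03g0836600 outward. The on lines J2_246 and J2_314 and the off line J2_403 differed at the 2 outermost genes only, Os03g0824350 and Os03g0822100, apart from J2_314 also differing at Os03g0861100. In each of these 6 lines 0 genes farther out returned to the side of the class. Other lines showed no such run. J2_385, an on line, differed at Os03g0839900 and Os03g0822100 and matched at the 2 genes between them. J2_316, also on, differed at Os03g0846900 and Os03g0822100, and at 3 of the genes between them its side differed between the years. The on line J2_288 differed at Os03g0861100 alone.

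**Figure D4:**
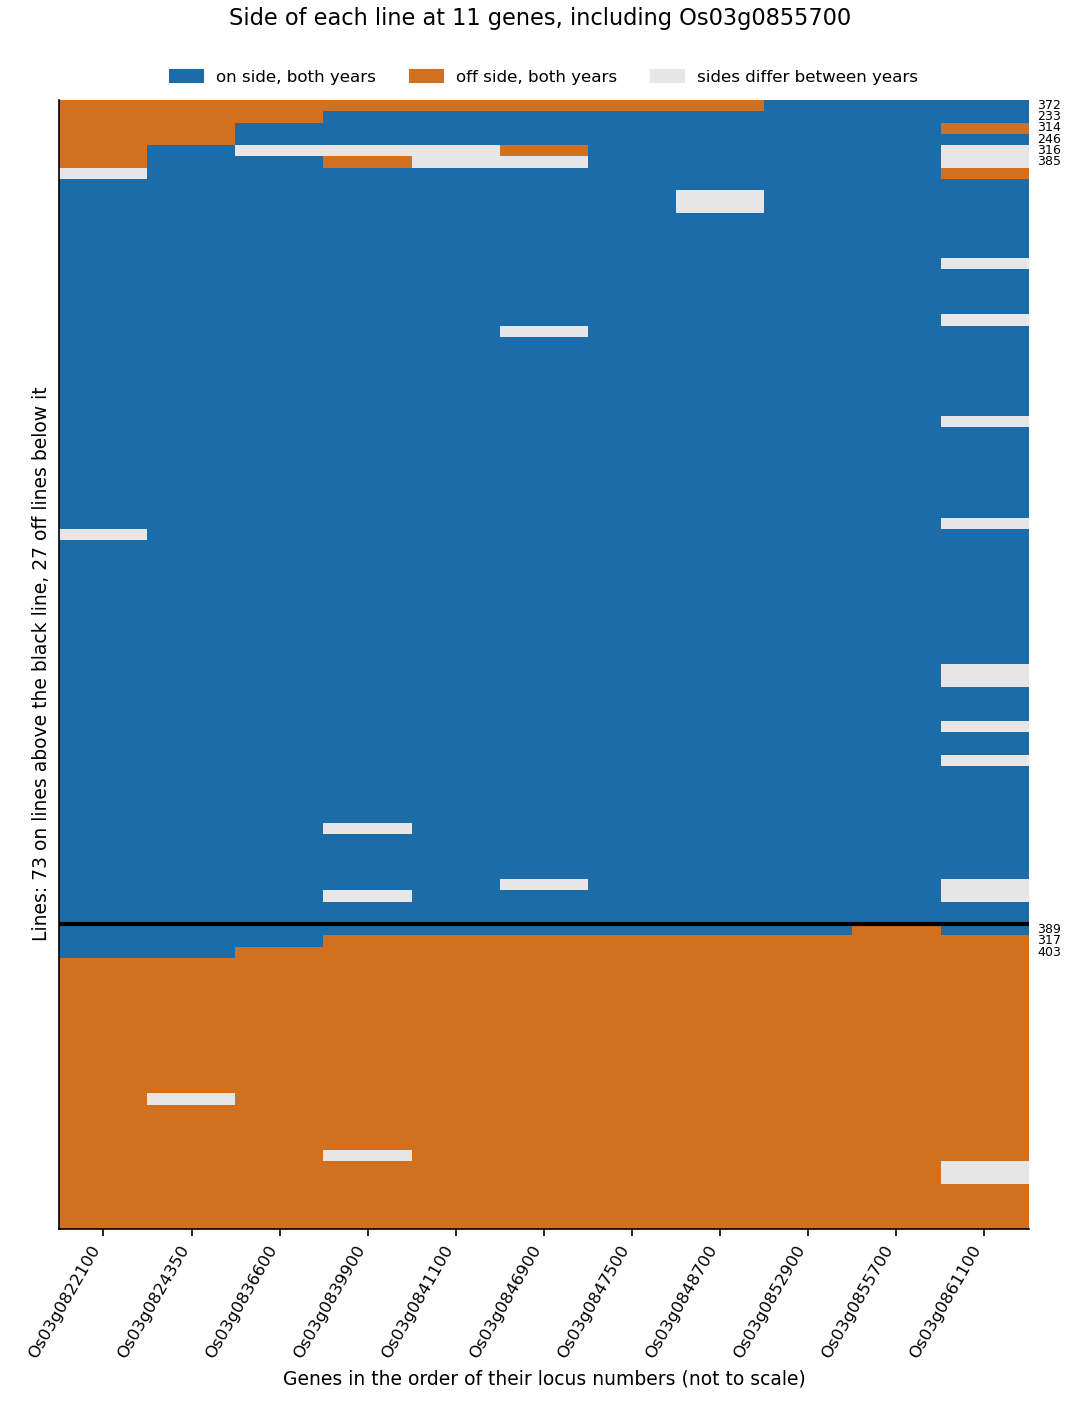
Rows are lines, on lines above the black line and off lines below it, and columns are the 10 genes and Os03g0855700 in the order of their locus numbers; blue is the on side and orange the off side in both years, and grey marks sides that differ between the years. Numbers at the right name the 9 lines with 2 or more genes on the other side, whose colour changes at 1 point and holds outward in J2_372, J2_233, J2_246, J2_317 and J2_403.

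J2_389 differed from its class at all 10 genes. It was off at Os03g0855700 in both years, at 0.149 and 0.143 CPM, yet on the on side at the others, those on both sides of it included. Its Os03g0852900 level was 49.1 CPM in 2022 and 45.3 CPM in 2023, its Os03g0847500 level 12.4 and 11.3 CPM, and its Os03g0861100 level 1.49 and 3.15 CPM. The off medians at those genes were 4.55 and 3.24, 0 and 0, and 8.34 and 7.80 CPM. At its neighbouring genes this off line thus read like the on class. Leaving it out gave 45 window genes called in both years, all 43 among them.

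Lines with a low level of Os03g0855700 were of different kinds. J2_316 and J2_385, at 74.8 and 54.5 CPM in 2022, had the lowest Os03g0852900 levels of the on class in both years, with 26.9 and 23.1 CPM in J2_316 and 27.2 and 19.4 CPM in J2_385. They were the highest on lines but J2_372 at Os03g0841100, with 22.5 and 27.3 CPM and with 21.7 and 29.7 CPM, where the on median was 14.8 and 13.4 and the off median 34.9 and 39.4 CPM. These lines thus lay between the classes at genes of both directions, and several of their sides differed between the years. J2_323 and J2_404, at 36.8 and 73.8 CPM in 2022, lay on the on side at the other genes in both years. Their Os03g0852900 levels were 61.7 and 48.7 CPM in J2_323 and 56.8 and 46.2 CPM in J2_404. In 2022, however, J2_404 lay close to the midpoint at Os03g0822100 (5.78 CPM, midpoint 5.93) and Os03g0846900 (5.50 CPM, midpoint 5.93). The 4 lines together were left out as an alternative, and 44 window genes were then called in both years, with all 43 among them.

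The transcripts most like Os03g0855700 over the 100 lines were 5 of the genes above. The Pearson r of log2 CPM was 0.962 in 2022 and 0.957 in 2023 for Os03g0852900, 0.926 and 0.945 for Os03g0847500, 0.855 and 0.914 for Os03g0848700, 0.824 and 0.872 for Os03g0836600, and 0.791 and 0.806 for Os03g0824350. Within the 73 on lines the same r lay between −0.234 and 0.126 in 2022 and between 0.0037 and 0.199 in 2023. The likeness thus lay in the classes and not in the gradation among on lines. These values are descriptions over lines that share their libraries' depth.

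Whether the difference between classes changed from year to year was tested as a class by year interaction over 18505 genes, and 2 passed (0.0108%). Both lie near Os03g0855700. The test took the libraries of a line as independent, so its p-values ignore that each line was sampled in both years. Os03g0844900, 10800 locus numbers away, had a median of 204.1 CPM in on lines and 229.6 CPM in off lines in 2023, and of 192.9 CPM in on lines and 168.2 CPM in off lines in 2022. Its log2 difference was −0.13 in 2023 (adjusted p = 0.828) and 0.23 in 2022 (adjusted p = 0.000321), so the 2023 minus 2022 difference was −0.36 (SE 0.069, adjusted p = 0.00675, edgeR). The 2022 call was lost in the higher-numbered lines (adjusted p = 0.652) and without the lines of the 30 deepest 2022 libraries (adjusted p = 0.265). Os03g0860000, 4300 locus numbers beyond, had medians of 14.5 CPM in on lines and 11.5 CPM in off lines in 2023, and of 14.9 CPM in on lines and 13.8 CPM in off lines in 2022. Its log2 difference was 0.41 in 2023 and 0.11 in 2022, and the 2023 minus 2022 difference was 0.30 (SE 0.061, adjusted p = 0.0127). With the line as a replicate block, which compares each line with itself, 4 genes passed (0.0216%), those 2 among them. The block added Os03g0836600, at 0.78 (SE 0.156, adjusted p = 0.0119), which was more strongly higher in on lines in 2023. It also added Os03g0846900, at −0.70 (SE 0.125, adjusted p = 0.0014), which was more strongly lower in on lines in 2023. Without the block those had adjusted p = 1.00 and 0.934. Of 17 window genes tested in both years and called in 1 alone, 16 had the same sign in the other year.

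**Figure D5:**
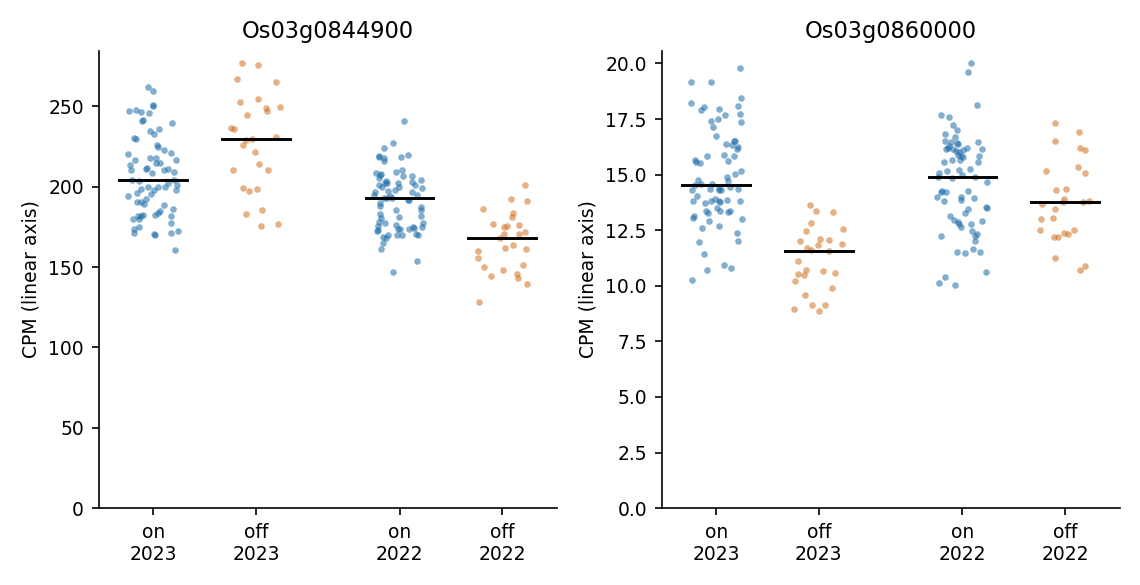
CPM on linear axes of the 2 genes whose class difference differed between the years, 1 point per line (73 on, blue; 27 off, orange) with a black bar at the median. At Os03g0844900 the on median is below the off median in 2023 (204.1 CPM in on lines, 229.6 CPM in off lines) and above it in 2022 (192.9 CPM in on lines, 168.2 CPM in off lines).

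Some features of the libraries were uneven between the classes. Of the 30 deepest 2022 libraries, 24 were of on lines and 6 of off lines. Of the 50 lines with lower numbers, 40 were on and 10 off, and of the 50 with higher numbers, 33 were on and 17 off. The median position of a library in the table's columns was 56 for on lines and 45 for off lines in 2022, and 48 for on lines and 70 for off lines in 2023. With column position as linear and quadratic terms, 43 window genes were called in both years, 41 of them among the 43 above, and with library total as a term 44, with all 43. Within the lower-numbered lines 27 window genes were called in both years, 26 of them among the 43, and within the higher-numbered lines 23, all among the 43.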

How the data were processed

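Leaf poly(A) RNA of 100 lines was sequenced in 2022 and 2023 with a strand-keeping kit, per the labels' protocols. The authors deposited raw counts per gene for 37849 loci in 2 tables, 1 per year, and all columns matched a labelled sample. Unique exon reads were counted, per the labels, and the submitters' processing notes name the build IRGSP-1.0. How well each parent's alleles align to that build was not analysed here. Neither aligner nor counter was stated in the sources used here. Library totals had medians of 7768777 (2022) and 11272411 (2023) counts.

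CPM were counts over the library total. On and off lines were compared within each year by edgeR 4.0.16 in R 4.3.3 (TMM factors, quasi-likelihood F test, mean of at least 1 CPM, Benjamini-Hochberg adjustment over all genes tested). SE is the absolute log2 difference over the square root of F. Os03g0855700 was fitted with the other genes and entered the adjustment, but its own result is not reported. Counts of genes within each year leave it out, and the 18505 genes of the interaction include it. The class by year interaction was fitted without a line block, so it took the libraries of a line as independent. Line numbers pair the libraries by design, because each number names 1 line, sampled in each year. The fit with a line block uses that pairing and is given as an alternative. DESeq2 1.42.0 and other settings were alternatives.

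The members and gene lists were chosen with earlier results of these data known, and most names at the chromosome end were paired after the tables were opened. Genes named were the 12 largest differences per direction among window genes called in both years, genes on/off in both years, list members with a kept name, genes passing the interaction and the 5 highest r with Os03g0855700; lines were named where they lay apart, after their values were seen. Of 95 symbols paired with a locus from general knowledge, 81 were kept because the RefSeq table of assembly ASM3414082v1 lists the symbol on that chromosome in a compatible order. A kept name was not matched by identifier, since the table's identifiers are of another kind. The values of 1 gene of the flowering list are not reported here, though it counts among the list's tested members and in its median.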

Additional observations from a re-analysis of the deposited data

Results flagged for a closer look

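The difference between on and off lines differed between the years at 2 genes by the class by year interaction (edgeR without a line block, adjusted over 18505 genes). At Os03g0844900 it was −0.36 (2023 minus 2022, log2), with on lines above the off median in 16 of 73 in 2023 and in 68 of 73 in 2022. At Os03g0860000 it was 0.30, with 68 of 73 on lines above the off median in 2023 and 49 of 73 in 2022. Library totals and column positions of the classes differed between the years as given above, and their part in these differences was not tested.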

How the results depend on the processing

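For the 24 genes with the largest differences, 0 of 576 values under the alternatives changed direction and 562 kept their side of the threshold. The cause of the other 14 was not tested. Those 14 came from the higher-numbered lines (8), the lower-numbered lines (4) and the lines outside the 30 deepest 2022 libraries (2). The 10 genes of at least 2-fold had none of these 14 values. The 24 genes were chosen for large differences called in the fit reported, and the alternatives reuse its libraries. The unchanged directions are therefore a description. Window genes called in both years numbered 43 in the fit reported, 48 by DESeq2, 40 with total counts alone, 52 without the filter, 46 with filterByExpr and 41 with stricter class limits of 4 and 0.1 CPM (96 lines). Classes taken from the other year held the same 100 lines, so that fit is the one reported and is not counted above.

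Fewer lines gave fewer calls. The lower-numbered lines gave 33 window genes in 2023 and 27 in both years, 9 of them lower in on lines. The higher-numbered lines gave 30 in 2022, 35 in 2023 and 23 in both years (15 higher and 8 lower). Without the lines of the 30 deepest 2022 libraries, 32 were called in both years, all among the 43.

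Outside the window the single-year counts were small and moved. In 2022 they were 1 as reported, 28 without the filter, 4 by DESeq2, 3 with column position, 3 in the lower-numbered lines, 3 without J2_389 and 0 without the deepest libraries. In 2023 they were 2 as reported, 25 without the filter, 4 by DESeq2, 4 with library total, 1 with total counts, 1 in the lower-numbered lines and 8 without the deepest libraries. In both years together the count was 0 in each of these except 3 without the filter, and 0 with all of chromosome 3 left out. With a replicate block for each line, which pairs its libraries, 4 genes passed the interaction instead of 2. No scaling moved the median of all genes by over 0.1 (log2). The alternatives without J2_389 and without the 4 low lines were chosen after seeing the data. Low counts limit genes near 1 CPM, and only lines, not plots, are replicated.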
